A study of Mus musculus with 4 samples.

Results

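Insulin-producing cells of mouse islets were ranked by how much of their RNA came from 5 genes of the NF-kappaB pathway, and the top 3% of them are described here against the other insulin cells of the same library. The pool held 20279 insulin cells, and 608 of them (2.998%) reached the rule, which is 608 of the 31792 cells kept in the series. A cell counted as an insulin cell when it held at least 1000 UMIs (unique molecular identifiers, 1 per captured transcript), at least 500 genes and at most 20% mitochondrially encoded UMIs. In addition, Ins1 and Ins2 had to make up at least 4% of its UMIs, Gcg under 2%, and Sst and Ppy under 1% each. The score was the summed UMIs of Nfkbia, Birc3, Tnfaip3, Nfkb2 and Relb divided by the cell's UMIs, given in counts-per-million (CPM). Because measured values of these 5 genes chose the cells, their levels are a description and carry no test.

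The islets came from male C57BL6J mice of wild-type genotype, 8 weeks old, and were kept in culture for 24 h. There was 1 library for each of 4 conditions: 1 mM imeglimin at 11.1 mM glucose, vehicle (DMSO) at 11.1 mM glucose, 1 mM imeglimin at 3.9 mM glucose, and vehicle at 3.9 mM glucose. Imeglimin is an oral glucose-lowering drug of the glimin class. The dispersed cells were profiled by droplet 3′ sequencing, which counts transcripts by UMI. Each condition is a single library, so differences between conditions have no replicate check, and how many mice each one pooled is not given in the sources used here. Below, levels in CPM are after TMM scaling (trimmed mean of M-values) unless plain CPM is named, scores per cell are unscaled, and values of the 4 libraries follow the order imeglimin 11.1 mM, vehicle 11.1 mM, imeglimin 3.9 mM, vehicle 3.9 mM.

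NF-kappaB is a family of transcription factor dimers that rest in the cytoplasm bound to inhibitors. Signals from cytokine receptors, pattern recognition receptors, DNA damage or other stress activate the IKK kinases, the inhibitors are degraded, and the dimers enter the nucleus. Among the first genes they induce are their own inhibitors, so transcripts of Nfkbia (I-kappaB-alpha) and Tnfaip3 (A20) serve as a record of recent pathway activity. In beta cells the pathway is known for its response to interleukin-1 and tumour necrosis factor, and A20 and the cIAP2 protein encoded by Birc3 limit the resulting cell death. Nfkb2 and Relb encode the subunits of the non-canonical branch.

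Whole libraries held between 91245564 and 106092232 UMIs and 7166 to 8755 kept cells. The doublet caller marked 0 barcodes in each library, so its calls did not work. An alternative left out the cells with its highest scores. These scores come from the same run, so doublets may remain among the members. Any pair of libraries had 5 to 12 insulin-cell barcodes in common, and no barcode was a member in 2 libraries. The imeglimin 3.9 mM library stood apart: 18.4% of its insulin cells held fewer than 3000 UMIs, against 1.63%, 1.17% and 3.58% in the imeglimin 11.1 mM, vehicle 11.1 mM and vehicle 3.9 mM libraries.

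Members were very unevenly spread over the libraries. They made up 39 of 5704 insulin cells (0.684%, 95% exact Clopper-Pearson interval 0.487 to 0.934) with imeglimin and 36 of 5197 (0.693%, 0.486 to 0.958) with vehicle at 11.1 mM glucose. At 3.9 mM they made up 484 of 4853 (9.97%, 9.14 to 10.9) with imeglimin and 49 of 4525 (1.08%, 0.802 to 1.43) with vehicle. The imeglimin 3.9 mM library therefore held 79.6% of all members. These intervals cover counting error only, and the share follows from the rule, so it is a description of 4 libraries. Among insulin cells with at least 5000 UMIs, ranked anew, the shares were 0.747% and 0.828% with imeglimin and vehicle at 11.1 mM, and 10.8% and 1.49% at 3.9 mM. When each cell was thinned to 3000 UMIs, the shares were 0.980%, 1.30%, 11.8% and 2.13% in the same library order. The imeglimin 3.9 mM library thus stayed highest under both depth controls.

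**Figure D1:**
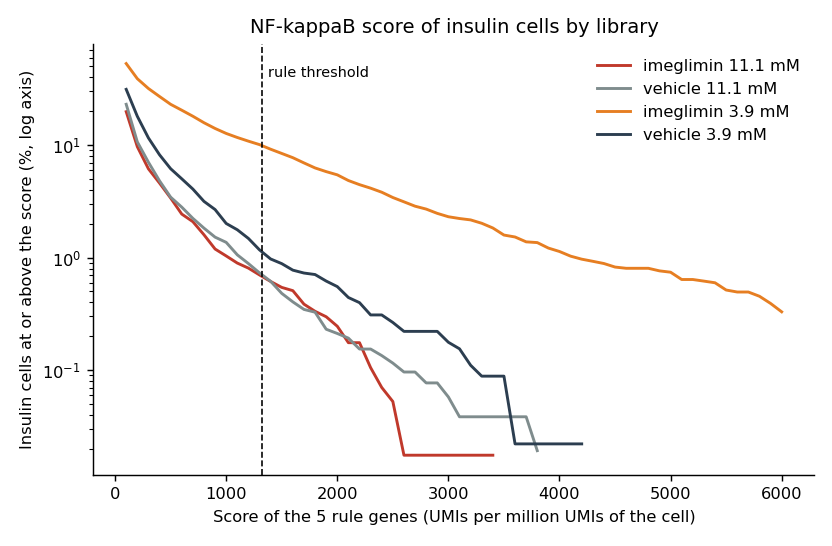
Share of insulin cells (y axis, percent, log axis) whose score, the UMIs of the 5 rule genes in CPM of the cell, lies at or above the value on the x axis, 1 line per library. The line of imeglimin at 3.9 mM lies above the other 3 at every score drawn, and at the dashed threshold it stands near 9.97%, while the lines of the other libraries stand between 0.684% and 1.08%.

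The score formed a continuous range, with no gap at the threshold. The 3 members nearest to it scored 1321.88, 1319.36 and 1319.35 CPM, and the 3 insulin cells just below it 1318.65, 1317.52 and 1317.05. Some of these rest on very few molecules: 1 cell just inside held 2 rule UMIs among 1513, and 1 just outside held 2 among 1518. In all, 51 members held 3 rule UMIs or fewer, 48 of them in the imeglimin 3.9 mM library. The median member held 18, 16, 19 and 23 rule UMIs in the 4 libraries, and the median score of members was 1798, 1724, 2089.9 and 2001 on the same scale. The whole distribution differed between libraries. The median score of all insulin cells was 0 in both 11.1 mM libraries, 112 CPM with imeglimin at 3.9 mM and 46.4 with vehicle at 3.9 mM.

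Nfkbia, the inhibitor that holds canonical dimers in the cytoplasm, carried most of the score. It stood at 1622, 1770.4, 2401 and 1512 CPM in members and at 48.0, 65.5, 177 and 69.2 CPM in the other insulin cells. Members with imeglimin at 3.9 mM had the highest level, and so had the other insulin cells of that library. Of all rule UMIs in members, Nfkbia gave 84.3%, 88.6%, 94.1% and 86.1%. It was the sole rule gene detected in 9 of 39, 7 of 36, 189 of 484 and 4 of 49 members. Depth moved with this: 78 of the 484 members with imeglimin at 3.9 mM held fewer than 3000 UMIs, against 2 of 39, 2 of 36 and 2 of 49 in the other libraries. Among members with at least 3000 UMIs, at least 2 rule genes were detected in 29 of 37, 28 of 34, 273 of 406 and 44 of 47.

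The other rule genes rested on far fewer UMIs. Birc3, an inhibitor of cell death that also ubiquitinates RIPK1, stood at 92.2, 59.7, 55.9 and 114 CPM in members, against 6.50, 8.46, 9.39 and 8.12 CPM in the other insulin cells. Tnfaip3, the ubiquitin-editing brake A20, stood at 121, 53.7, 27.8 and 52.1 CPM in members and at 2.46, 2.75, 2.53 and 2.28 CPM in the others. Its level among members was lowest with imeglimin at 3.9 mM, the library in which Nfkbia was highest. Nfkb2, the p100 precursor, stood at 23.7, 38.8, 17.4 and 19.7 CPM in members and at 5.97, 5.15, 7.66 and 4.23 CPM in the others. Relb, its dimer partner, stood at 65.8, 74.6, 49.7 and 59.1 CPM in members and at 7.96, 6.63, 19.4 and 10.9 CPM in the others. All 5 genes were detected in 2, 2, 6 and 2 members, and at least 2 of them in 30 of 39, 29 of 36, 294 of 484 and 45 of 49.

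**Figure D2:**
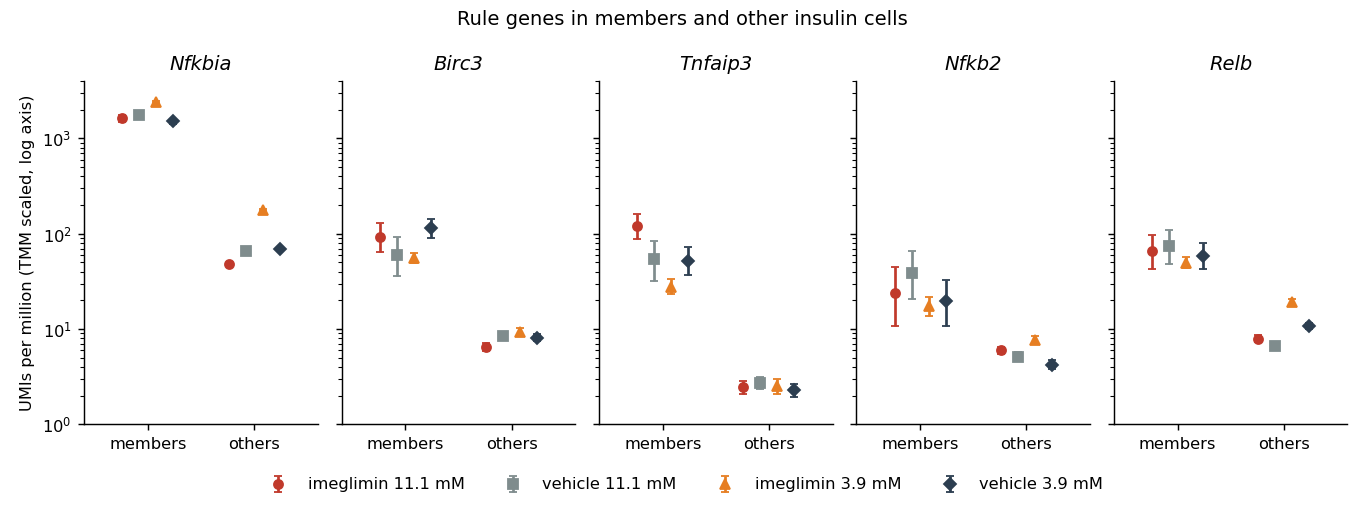
Levels of the 5 rule genes (y axis, TMM-scaled CPM, log axis) in members and in the other insulin cells, 1 point per library with its 95% exact Poisson interval, which covers counting error only. Nfkbia lies at 1512 CPM or above in the members of all 4 libraries, while the levels of the other 4 genes in members lie between 17.4 and 121 CPM.

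**Figure D3:**
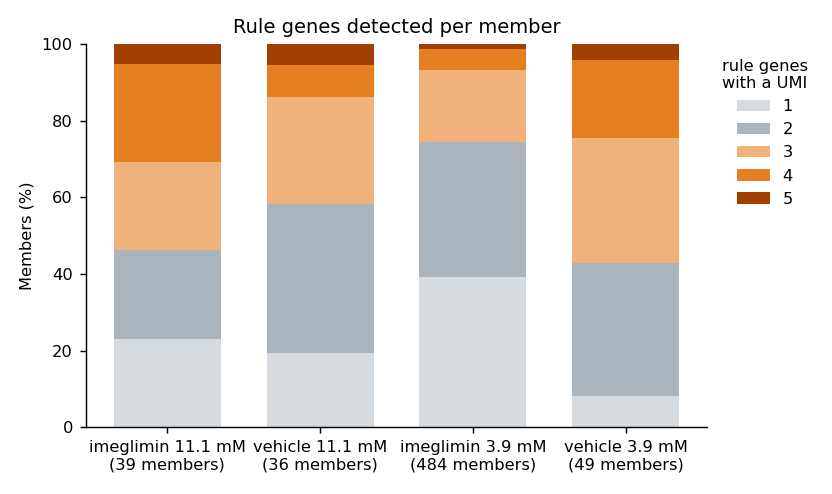
Share of members (y axis, percent) in which 1, 2, 3, 4 or 5 of the rule genes had a UMI, 1 stacked bar per library. A single rule gene was detected in 39.3% of members with imeglimin at 3.9 mM, against 23.1%, 19.4% and 8.16% in the imeglimin 11.1 mM, vehicle 11.1 mM and vehicle 3.9 mM libraries.

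To check how far the score holds in molecules that did not choose the cells, each cell's UMIs were split at random, members were chosen on one part and levels read in the other. Read this way, Nfkbia stood at 1215, 1447, 2174 and 1502 plain CPM in members and at 42.6, 57.6, 211 and 86.9 plain CPM in the others. Relb stood at 71.5, 50.3, 34.3 and 69.4 plain CPM in members and at 7.20, 5.67, 21.1 and 13.3 in the others. For Nfkbia and Relb the members' excess over the other insulin cells was therefore present in the unused molecules of all 4 libraries. Both genes belong to the rule, so this too is a description and carries no test. The 2 parts come from the same cells, so this speaks to sampling of transcripts and not to new cells.

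The label was checked against beta cell markers, of which Ins1 and Ins2 were part of the rule, so their presence follows from it. All 9 beta cell markers (Ins1, Ins2, Iapp, Pdx1, Nkx6-1, Mafa, Slc2a2, G6pc2 and Ucn3) were detected in the members of every library. Without Ins1 and Ins2 the other 7 summed to 74906, 82415, 55041 and 50376 CPM in members and to 106562, 112133, 51649 and 52855 CPM in the other insulin cells. Nearly all of this was Iapp, at 73797, 81498, 54482 and 49995 CPM in members and 104827, 109778, 51132 and 52360 CPM in the others. The sums therefore say little about the rest of the markers. Of the 9 markers, 1, 0, 4 and 1 were higher in members in the 4 libraries. Alpha cell markers other than Gcg, which the rule limits, summed to 150.1, 224, 326 and 148 CPM in members and to 568, 487, 299.7 and 218 CPM in the other insulin cells. Of these sums Ttr gave 121, 92.6, 278 and 117 CPM in members and 497, 398, 255 and 164 CPM in the others. The median insulin share of a member's UMIs was 24.9%, 25.6%, 20.97% and 8.58%, against 27.5%, 33.0%, 13.3% and 9.38% in the other insulin cells. It was higher in members than in the others only with imeglimin at 3.9 mM.

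Members held fewer UMIs than the other insulin cells. The medians were 9706, 8530.5, 8836.5 and 11443 UMIs per cell in members and 12771, 13055, 9653 and 12273.5 in the others, lower in 4 of 4 libraries. The mean difference was -2309 UMIs (SD 1816, n = 4, exact sign-flip permutation test, two-sided p = 0.13, the smallest that 4 libraries allow). Median genes per cell differed by -413 (SD 256, lower in 4 of 4, exact permutation p = 0.13). The median mitochondrial share differed by -0.111 percentage points (SD 0.238, higher in members in 1 of 4 libraries, exact permutation p = 0.375). Gene differences against other cells matched on UMIs are given below.

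Outside the rule, 91 of 7788 genes tested (1.17%) were higher in members and 15 (0.193%) were lower, by edgeR's quasi-likelihood test on sums per library with the library as a block, at a Benjamini-Hochberg adjusted p under 0.05. The higher genes included other NF-kappaB genes, secreted signals such as Csf1 and Cxcl2, and immediate early factors such as Junb. The lower ones included G6pc2 and Ucn3, genes of mature beta cells. The median log2 fold change of all genes tested was -0.02, which is the background for each list below. Single libraries moved these counts: without imeglimin 11.1 mM there were 34 higher and 6 lower, without vehicle 3.9 mM 51 and 16, without vehicle 11.1 mM 64 and 9, and without imeglimin 3.9 mM 191 and 37.

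Of 8 genes of the NF-kappaB and I-kappaB family outside the rule, 6 passed the minimum of 10 mean CPM, and 4 of these were higher in members, with a median log2 fold change of 1.41 over the 6. Nfkbiz, an inducible nuclear I-kappaB that steers secondary response genes, stood at 242, 80.6, 139.6 and 94.3 CPM in members and at 32.8, 21.3, 38.6 and 20.03 CPM in the others. The 2 groups did not overlap over the libraries, and the log2 fold change was 2.22 ± 0.17 (SE, adjusted p = 5.89e-06, edgeR). Here and below, such gaps are described for single genes, and the share of all 7788 genes tested that show one is not given. Bcl3, a nuclear I-kappaB that acts with p50 and p52, stood at 100.1, 110.5, 51.9 and 104 CPM in members and at 25.9, 27.5, 19.8 and 31.8 CPM in the others. Members with imeglimin at 3.9 mM were the lowest of the 4 but above the other insulin cells of every library (log2 1.71 ± 0.14, adjusted p = 7.82e-06, edgeR).

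Among the dimer subunits, Rel, which encodes c-Rel, stood at 81.6, 74.6, 39.6 and 46.5 CPM in members and at 12.2, 7.88, 17.7 and 8.38 CPM in the others. The groups did not overlap, but the gap was narrowest with imeglimin at 3.9 mM (log2 2.22 ± 0.34, adjusted p = 0.0180, edgeR). Nfkb1, the p105 precursor of p50, stood at 92.2, 86.6, 45.4 and 63.4 CPM in members and at 34.6, 37.4, 33.7 and 32.3 CPM in the others (log2 0.91 ± 0.17, adjusted p = 0.0120, edgeR). Rela, which encodes the main activating subunit p65, stood at 42.1, 77.6, 29.6 and 25.3 CPM in members and at 13.5, 18.6, 18.2 and 19.5 CPM in the others. It was above the others in 4 of 4 libraries and missed the threshold (log2 1.11 ± 0.26, adjusted p = 0.0582, edgeR). Nfkbib, which encodes I-kappaB-beta, likewise missed it (log2 0.67 ± 0.19, adjusted p = 0.107, edgeR). Nfkbie and Nfkbid were below the minimum. Single libraries decided some of these calls. Without imeglimin 11.1 mM the adjusted p of Rel was 0.244 and that of Nfkb1 0.170, and 2 of the 6 genes passed. Without vehicle 3.9 mM that of Rel was 0.0955, without vehicle 11.1 mM that of Nfkb1 was 0.0619, and without imeglimin 3.9 mM 5 of 6 genes passed (all edgeR).

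**Figure D4:**
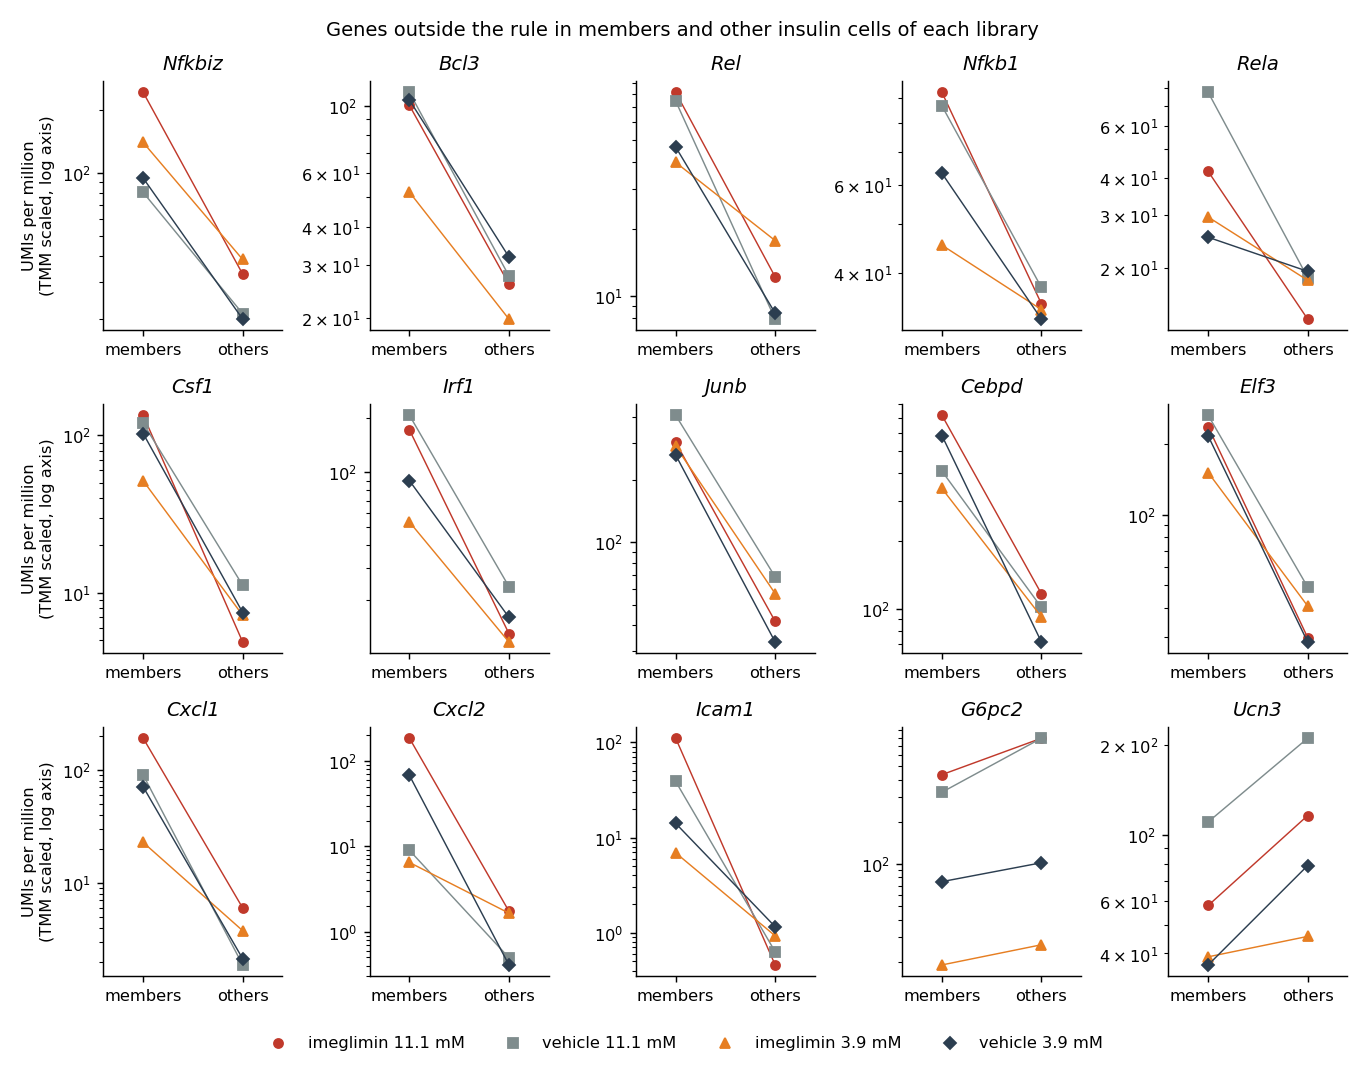
Levels (y axis, TMM-scaled CPM, log axis) of 15 genes that did not enter the rule, in members and in the other insulin cells, 1 point per library joined by a line. The members of all 4 libraries lie above the other insulin cells for Nfkbiz, Bcl3, Csf1, Irf1, Junb, Cebpd and Elf3, and for Icam1 the members fan out between 111 CPM with imeglimin at 11.1 mM and 6.90 CPM with imeglimin at 3.9 mM.

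Promoter windows were read from RefSeq (build GRCm38.p6), 250 bases before to 50 after each start, and searched on both strands for the 10-base kappaB consensus. Of 7788 tested genes 6295 had a window, and 385 of these (6.12%) held a match. Of the 91 genes higher in members 71 had a window and 16 (22.5%) held a match, while 0 of the 12 lower genes with a window did. Of the rule genes with a window, Nfkbia, Tnfaip3 and Nfkb2 held a match and Birc3 did not. A match describes letters in this window and is no evidence of binding, and the genes above were not chosen at random. Shown here are the windows of 2 rule genes and of 3 genes outside the rule that were higher in members, 5′ to 3′ on the gene's own strand, with each match in capitals.
Nfkbia, chr12:55492598-55492897, minus strand: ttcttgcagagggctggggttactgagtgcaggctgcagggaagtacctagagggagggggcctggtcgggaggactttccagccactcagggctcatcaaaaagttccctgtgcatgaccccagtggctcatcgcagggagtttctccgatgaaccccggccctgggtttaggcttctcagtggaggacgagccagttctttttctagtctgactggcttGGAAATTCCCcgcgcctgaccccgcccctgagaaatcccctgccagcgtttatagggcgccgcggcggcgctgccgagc
Tnfaip3, chr10:19015361-19015660, minus strand: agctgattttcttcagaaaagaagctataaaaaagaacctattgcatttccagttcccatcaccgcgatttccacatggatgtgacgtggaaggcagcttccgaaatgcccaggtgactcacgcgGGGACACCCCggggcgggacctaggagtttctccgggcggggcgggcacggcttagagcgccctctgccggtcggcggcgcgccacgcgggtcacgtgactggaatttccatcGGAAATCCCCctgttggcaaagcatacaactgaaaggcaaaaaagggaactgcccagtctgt
Bcl3, chr7:19822706-19823005, minus strand: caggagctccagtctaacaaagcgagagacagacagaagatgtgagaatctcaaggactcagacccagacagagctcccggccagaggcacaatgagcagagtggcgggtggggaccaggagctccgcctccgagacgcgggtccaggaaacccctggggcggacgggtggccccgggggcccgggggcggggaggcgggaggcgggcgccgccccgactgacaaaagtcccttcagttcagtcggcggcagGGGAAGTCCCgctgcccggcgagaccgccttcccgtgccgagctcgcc
Csf1, chr3:107760420-107760719, minus strand: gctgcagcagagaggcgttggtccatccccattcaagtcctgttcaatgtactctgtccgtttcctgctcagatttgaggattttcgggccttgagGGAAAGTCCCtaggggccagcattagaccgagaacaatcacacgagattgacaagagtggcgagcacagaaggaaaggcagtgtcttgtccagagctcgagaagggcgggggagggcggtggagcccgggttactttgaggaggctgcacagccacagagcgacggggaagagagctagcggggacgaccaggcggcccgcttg
Cxcl2, chr5:90903649-90903948, plus strand: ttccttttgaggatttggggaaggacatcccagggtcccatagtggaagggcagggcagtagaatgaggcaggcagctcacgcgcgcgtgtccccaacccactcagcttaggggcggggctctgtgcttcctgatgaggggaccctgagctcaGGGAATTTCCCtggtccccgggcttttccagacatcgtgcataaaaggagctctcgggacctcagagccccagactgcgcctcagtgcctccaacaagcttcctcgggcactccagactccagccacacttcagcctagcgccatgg
In these windows the match begins 29 bases before the start in Nfkbia, 125 and 12 before it in Tnfaip3, 154 before it in Csf1, and 97 and 96 before it, overlapping, in Cxcl2. In Bcl3 it begins at base 3 after the start.

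Among 32 inflammatory targets of NF-kappaB, 14 were tested and 5 were higher, with a median log2 fold change of 2.82 over the 14. For 8 of the 14 the other insulin cells averaged under 10 CPM, so these genes reached the minimum only through their level in members, which bears on the median. Without the minimum 31 were tested, 7 were higher and the median was 1.78. That fit had its own background, with 164 of 22355 genes higher and a median of -0.26 over all of them. Csf1, which encodes the macrophage growth factor M-CSF, stood at 134, 119, 51.4 and 103 CPM in members and at 4.86, 11.1, 7.18 and 7.48 CPM in the others. Every library's members were above every library's other cells (log2 3.64 ± 0.29, adjusted p = 2.44e-04, edgeR). Csf1 UMIs were found in 12 of 39, 11 of 36, 99 of 484 and 20 of 49 members, and the 3 highest cells held 32 of 51 and 25 of 40 of the UMIs in the 11.1 mM libraries, and 29 of 231 and 29 of 73 at 3.9 mM. Irf1, an interferon regulatory factor induced by NF-kappaB, stood at 171, 206, 53.5 and 90.1 CPM in members and at 13.04, 23.6, 11.7 and 16.0 CPM in the others (log2 2.82 ± 0.24, adjusted p = 5.26e-04, edgeR). Sdc4, a heparan sulfate proteoglycan, was higher as well (log2 1.36 ± 0.16, adjusted p = 3.54e-04, edgeR). The remaining calls of the list were Cxcl2 and Tnfaip8, a relative of the death-effector proteins (log2 1.46 ± 0.21, adjusted p = 0.00115, edgeR).

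Chemokine and adhesion genes differed far more between the members of the 4 libraries. Cxcl2, a neutrophil attractant, stood at 184, 8.96, 6.46 and 67.6 CPM in members and at 1.74, 0.495, 1.65 and 0.407 CPM in the others (log2 5.33 ± 1.04, adjusted p = 0.0210, edgeR). The highest cell in each library held 35 of 70, 2 of 3, 12 of 29 and 39 of 48 of these members' UMIs, so few cells set the level, and its adjusted p was 0.578 without imeglimin 11.1 mM, 0.0692 without vehicle 11.1 mM and 0.0980 without vehicle 3.9 mM (edgeR). Cxcl1, its neighbour and relative, stood at 189.6, 89.6, 22.7 and 70.4 CPM in members and at 5.98, 1.88, 3.77 and 2.13 CPM in the others. It was higher in 4 of 4 libraries but missed the threshold (log2 4.44 ± 0.67, adjusted p = 0.107, edgeR). Icam1, an adhesion receptor for leukocytes, stood at 111, 38.8, 6.90 and 14.1 CPM in members and at 0.458, 0.630, 0.926 and 1.16 CPM in the others (log2 5.04 ± 1.34, adjusted p = 0.0928, edgeR). Its members did not overlap the others, and 10 of 39, 6 of 36, 14 of 484 and 5 of 49 members held an Icam1 UMI.

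Members of the imeglimin 3.9 mM library had the lowest levels of Icam1, Cxcl1, Cxcl2, Csf1 and Irf1 and the highest level of Nfkbia. Other genes did not follow this order. In members Sdc4 stood at 253, 373, 330 and 193 CPM and Gadd45b at 116, 158, 168 and 118 CPM, and Jun was highest in that library. With the top 3% taken within each library, so that the libraries give like numbers of cells, Nfkbia stood at 829.6, 850.1, 3784 and 1194 plain CPM in the chosen cells. Icam1 then stood at 28.0, 13.4, 7.30 and 12.7 plain CPM and Cxcl1 at 83.5, 45.9, 32.5 and 60.5. Csf1 no longer had its lowest value with imeglimin at 3.9 mM, at 51.4, 62.5, 60.04 and 74.9 plain CPM. Chosen without Nfkbia, members made up 1.93%, 1.71%, 5.79% and 2.83% of insulin cells, and Icam1 stood at 46.2, 22.7, 11.3 and 14.1 plain CPM in them. These orders compare single libraries and have no test.

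Ccl2, a monocyte attractant, shows how 1 library can carry a chemokine. It stood at 158, 0, 0.668 and 1.41 CPM in members and at 2.19, 0.795, 2.43 and 1.71 CPM in the others (log2 1.55 ± 1.77, adjusted p = 0.848, edgeR), and 5 of 39 members with imeglimin at 11.1 mM held all 60 of that library's member UMIs. Lcn2, the siderophore binder lipocalin 2, stood at 1477, 74.6, 10.0 and 117 CPM in members and at 36.4, 39.4, 8.48 and 31.7 CPM in the others (adjusted p = 0.661, edgeR). With imeglimin at 11.1 mM, 3 cells held 473 of 561 Lcn2 UMIs. Ccl5, a T cell attractant, stood at 350.3, 699, 1.34 and 0 CPM in members and at 12.5, 8.91, 27.1 and 11.96 CPM in the others (adjusted p = 0.843, edgeR). A single cell held 131 of 133 Ccl5 UMIs with imeglimin and 234 of 234 with vehicle at 11.1 mM.

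Few upstream genes of the pathway passed the test. Of 13 receptors 5 were tested, and 1 was higher: Tlr2, a receptor for bacterial lipoproteins, stood at 34.2, 20.9, 30.1 and 21.1 CPM in members and at 8.77, 9.35, 12.8 and 8.40 CPM in the others (log2 1.38 ± 0.21, adjusted p = 0.00221, edgeR). The groups did not overlap. The other insulin cells averaged 9.83 CPM, so Tlr2 reached the minimum of 10 mean CPM only through its level in members. Il1r1, the interleukin-1 receptor, was at 279, 179, 229.8 and 331 CPM in members and at 269, 270.1, 193 and 308 CPM in the others (log2 -0.01 ± 0.13). Tnfrsf1a, the TNF receptor 1 gene, had a log2 fold change of 0.51 ± 0.16 (adjusted p = 0.196, edgeR), and Tnfrsf12a and Il17ra had 0.49 ± 0.40 and 0.13 ± 0.25. Of 27 adaptors and kinases 18 were tested, and edgeR and DESeq2 each called 0 of them, with 3 above 0 at an unadjusted p under 0.05 in edgeR. The list's median was 0.19, and Chuk, which encodes IKK-alpha, had a log2 fold change of 0.07 ± 0.15 and the cIAP1 gene Birc2 of 0.71 ± 0.18 (adjusted p = 0.0727, edgeR).

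Of 8 other brakes of the pathway tested, 1 was higher: Tnip1, an A20-binding protein, stood at 47.4, 8.96, 29.6 and 28.2 CPM in members and at 7.08, 7.71, 9.08 and 9.86 CPM in the others (log2 1.73 ± 0.27, adjusted p = 0.00323, edgeR). Vehicle at 11.1 mM showed the smallest gap, on 3 UMIs in members. In the others Tnip1 lay under 10 CPM in every library, so it reached the minimum only through its level in members. The deubiquitinase gene Cyld and Otulin had log2 fold changes of 0.17 ± 0.15 and 0.08 ± 0.18. Of 7 survival targets tested edgeR called 0, 5 were above 0 at an unadjusted p under 0.05, and DESeq2 called 2. Ier3, an early response gene that modulates apoptosis, stood at 300.2, 281, 13.6 and 163 CPM in members and at 35.9, 28.4, 5.93 and 9.73 CPM in the others (log2 2.97 ± 0.57, adjusted p = 0.215, edgeR). Gadd45b, a stress-inducible activator of MAP kinase signalling, stood at 116, 158, 168 and 118 CPM in members and at 6.90, 9.27, 53.005 and 22.5 CPM in the others (log2 2.84 ± 0.61, adjusted p = 0.262, edgeR). Both were above the others within each library. Sod2, the mitochondrial superoxide dismutase gene, had a log2 fold change of 0.71 ± 0.21 (adjusted p = 0.215, edgeR).

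Immediate early and stress-inducible regulators were higher too. Of 19 immediate early genes tested 7 were higher and 0 lower, with a median of 0.88 on the log2 scale, and 3 of the 19 averaged under 10 CPM in the other insulin cells. Junb, an AP-1 subunit, stood at 303, 409, 289.8 and 263 CPM in members and at 41.7, 68.3, 56.7 and 33.2 CPM in the others. It had the smallest adjusted p of all genes tested (log2 2.68 ± 0.13, adjusted p = 2.21e-08, edgeR), and the members of every library were above the other cells of every library. Jun stood at 269, 308, 408 and 125 CPM in members and at 58.1, 56.2, 219 and 32.4 CPM in the others, where the groups overlap across libraries though not within any (log2 1.82 ± 0.27, adjusted p = 0.0290, edgeR). The adjusted p of Jun was 0.199 without imeglimin 11.1 mM, 0.0619 without vehicle 11.1 mM and 0.103 without vehicle 3.9 mM. Zfp36, which destabilises cytokine mRNAs, rose (log2 1.84 ± 0.24, adjusted p = 6.19e-04, edgeR), as did Maff, a small MAF factor (log2 1.69 ± 0.22, adjusted p = 6.42e-04, edgeR). Zfp36 averaged 7.61 CPM in the other insulin cells, so it reached the minimum only through its level in members. Ier5, Jund and Btg2 were the other calls. Fos, at 55.3, 44.8, 9.58 and 2.82 CPM in members and 21.6, 38.6, 4.84 and 1.09 CPM in the others, missed the threshold (adjusted p = 0.0809, edgeR), as did Atf3 (log2 1.35 ± 0.87, adjusted p = 0.694, edgeR).

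Among the 12 highest fold changes past the threshold were further transcription factors and signalling genes. Of the 12, Cxcl2, Csf1, Fas, Gbp6, Ccrl2 and Tifa averaged under 10 CPM in the other insulin cells. They reached the minimum only through members, which bears on this ranking. Cebpd, a C/EBP factor of acute phase responses, stood at 716, 406, 340.3 and 583 CPM in members and at 117, 102, 92.3 and 71.4 CPM in the others (log2 2.38 ± 0.18, adjusted p = 9.67e-05, edgeR). Elf3, an epithelial ETS factor, stood at 237, 266, 151 and 217 CPM in members and at 29.8, 49.0, 40.7 and 28.5 CPM in the others (log2 2.53 ± 0.18, adjusted p = 7.82e-06, edgeR). In both, every library's members lay above the other insulin cells of every library. Tifa, an adaptor that binds TRAF6, had a log2 fold change of 2.27 ± 0.33 (adjusted p = 0.00341, edgeR), and Ripk2, the kinase of NOD receptor signalling, of 2.43 ± 0.34 (adjusted p = 0.0151, edgeR). Depp1, a FOXO target, was at 71.1, 47.8, 141 and 74.6 CPM in members and 7.33, 6.95, 37.0 and 9.28 CPM in the others (log2 2.56 ± 0.23, adjusted p = 1.59e-04, edgeR). Gbp6, a guanylate-binding protein, and Ccrl2, an atypical chemerin receptor, were called at 2.46 ± 0.47 and 2.33 ± 0.52. Without imeglimin 11.1 mM the adjusted p of Ripk2 was 0.186, of Gbp6 0.118 and of Ccrl2 0.302, and without vehicle 3.9 mM these were 0.137, 0.119 and 0.312 (edgeR). Without vehicle 11.1 mM that of Gbp6 was 0.0691 and that of Ccrl2 0.202.

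Fas, the death receptor, was also among the 12. It stood at 5.27, 32.8, 22.5 and 18.3 CPM in members and at 0.791, 0.750, 5.37 and 1.81 CPM in the others (log2 3.31 ± 0.70, adjusted p = 0.0281, edgeR). The other insulin cells averaged 2.18 CPM, so Fas reached the minimum only through its level in members. The imeglimin 11.1 mM value rests on 2 UMIs, and the adjusted p was 0.0847 without that library, 0.155 without imeglimin 3.9 mM and 0.113 without vehicle 3.9 mM (edgeR). Without vehicle 11.1 mM Fas was not tested, and it was called in 10 of the 16 alternatives that tested it. Of 14 p53 and apoptosis genes tested 3 were higher, among them Fas and Btg2, an antiproliferative gene (log2 0.60 ± 0.13, adjusted p = 0.0255, edgeR). Cdkn1a, the p21 gene, was at 182, 719.5, 286 and 256 CPM in members and at 154, 107, 326 and 163 CPM in the others (adjusted p = 0.775, edgeR). With vehicle at 11.1 mM, 3 members held 173 of its 241 Cdkn1a UMIs. Btg2 was not called without imeglimin 11.1 mM (0.212), vehicle 11.1 mM (0.0692) or vehicle 3.9 mM (adjusted p = 0.262, edgeR).

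Of 21 genes of the interferon response and MHC class I tested, 5 were higher, with a median log2 fold change of 0.75, and 3 of the 21 averaged under 10 CPM in the other insulin cells. The number higher moved with the choice of cells and libraries. It was 1 of 21 without imeglimin 11.1 mM or without vehicle 11.1 mM, 2 of 21 without vehicle 3.9 mM and 11 of 21 without imeglimin 3.9 mM. It was 11 of 21 with DESeq2, 13 of 20 for the top 5%, 18 of 21 for the top 3% within each library and 17 of 22 for members chosen without Nfkbia. B2m, the light chain of class I molecules, stood at 413, 546, 193 and 369 CPM in members and at 199, 228, 138 and 162 CPM in the others (log2 0.98 ± 0.13, adjusted p = 6.77e-04, edgeR). It was above the others in 4 of 4 libraries, and least so with imeglimin at 3.9 mM. H2-D1, a heavy chain gene (log2 0.75 ± 0.14, adjusted p = 0.0175, edgeR), and Psmb8, an immunoproteasome subunit (log2 0.91 ± 0.19, adjusted p = 0.0357, edgeR), were higher too, with Gbp7 and Ifi27. Without imeglimin 11.1 mM the adjusted p of H2-D1 was 0.205 and of Psmb8 0.212, without vehicle 11.1 mM 0.0759 and 0.135, and without vehicle 3.9 mM 0.0639 and 0.0836 (edgeR). That of Gbp7 was 0.414, 0.0683 and 0.172 without the same libraries. MAP kinase feedback genes gave 2 higher of 7 tested, Dusp1 (log2 2.09 ± 0.19, adjusted p = 1.74e-05, edgeR) and Dusp5 (log2 0.76 ± 0.15, adjusted p = 0.0191, edgeR), both phosphatases that inactivate MAP kinases. The adjusted p of Dusp5 was 0.199 without imeglimin 11.1 mM, 0.121 without imeglimin 3.9 mM and 0.0582 without vehicle 3.9 mM.

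In 3 lists of stress genes no call was made in the cells chosen by the rule. edgeR and DESeq2 each called 0 of 31 integrated stress response genes (median log2 -0.01), of which 2 were above and 3 below 0 at an unadjusted p under 0.05 in edgeR. They also each called 0 of 28 unfolded protein response genes (median -0.18, 1 above and 2 below) and 0 of 13 heat shock genes (median 0.29, 5 above and 0 below). Other choices of members gave a few calls. With the top 3% within each library 3 heat shock genes, 3 integrated stress response genes and 1 unfolded protein response gene were higher and 2 integrated stress response genes lower. For the top 1% 2 heat shock genes were higher, and for the top 5% 2 integrated stress response genes were lower. Over all genes tested, the top 3% within each library gave 343 higher and 187 lower of 7753. The top 1% gave 55 and 17 of 7803, and the top 5% gave 181 and 49 of 7770. The list counts were not tested against these totals. Ddit3, which encodes CHOP, stood at 358, 672, 1523 and 1214 CPM in members and at 389.8, 129.6, 1717 and 1120.4 CPM in the others (adjusted p = 0.883, edgeR). The dissociation-sensitive chaperone genes Hspa1a and Hspa1b, near-identical neighbours whose reads the counting may split, had log2 fold changes of 0.33 ± 0.25 and 0.09 ± 0.22. In vehicle at 11.1 mM both were lower in members, Hspa1a at 59.7 against 112 CPM.

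Most genes of mature beta cells had fold changes below 0, with few calls. Of 27 identity genes tested 2 were lower and 0 higher, with a median of -0.37 and 22 of 27 below 0. G6pc2, the beta cell glucose-6-phosphatase that opposes glucokinase, stood at 435, 325, 18.9 and 74.6 CPM in members and at 792, 792, 26.4 and 102 CPM in the others (log2 -0.79 ± 0.14, adjusted p = 0.00931, edgeR). Ucn3, a marker of beta cell maturity, stood at 57.9, 110.5, 39.0 and 36.6 CPM in members and at 116, 211, 45.6 and 78.9 CPM in the others (log2 -0.72 ± 0.16, adjusted p = 0.0356, edgeR). Both fell within every library, while the level itself differed more between libraries than between members and others. Without imeglimin 11.1 mM the adjusted p of G6pc2 was 0.163 and of Ucn3 0.285, and that of Ucn3 was 0.174 without vehicle 11.1 mM and 0.148 without vehicle 3.9 mM (edgeR). Without imeglimin 3.9 mM, 7 of 28 tested were lower.

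Other identity genes missed the threshold. Mafa, a factor of mature beta cells, stood at 229, 173, 43.4 and 62.0 CPM in members and at 307, 555, 43.4 and 80.6 CPM in the others (adjusted p = 0.460, edgeR). Slc2a2, the glucose transporter gene, stood at 84.3, 74.6, 28.5 and 21.1 CPM in members and at 75.5, 268, 32.5 and 42.2 CPM in the others (adjusted p = 0.506, edgeR). Iapp, which encodes amylin, had a log2 fold change of -0.23 ± 0.10 (adjusted p = 0.415, edgeR). Of 19 granule and exocytosis genes edgeR and DESeq2 each called 0 (median -0.12, 1 above and 4 below 0 at an unadjusted p under 0.05), and the same held for 30 nuclear genes of oxidative phosphorylation (median -0.06, 0 above and 3 below) and 9 lipogenesis genes (median -0.24, 0 above and 2 below).

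The other lower genes included acinar cell genes, the alpha cell gene Gcg and the delta cell marker Rbp4. Ctrb1 and Prss2, digestive enzyme genes of acinar cells, stood at 2.63 to 6.24 and 2.45 to 2.99 CPM in members, and at 11.2 to 249.07 and 5.34 to 59.9 CPM in the other insulin cells. Both were among the lower calls, but reached the minimum of 10 mean CPM only through the other cells of the imeglimin 3.9 mM library, where 178 of 4369 cells held all 12100 Ctrb1 UMIs. Without that library neither was tested. Ctrb1 was called in 13 and Prss2 in 15 of the 19 alternatives that tested them, and DESeq2 did not call Ctrb1. Gcg was at 145, 146, 164 and 85.9 CPM in members and at 413, 525, 429 and 301 CPM in the others. It counts among the 15 lower genes, but the rule limits it, so its level carries no test. Rbp4, a delta cell marker, was lower at -1.03 ± 0.23, with an adjusted p of 0.212 without imeglimin 11.1 mM and 0.280 without vehicle 3.9 mM (edgeR). It was called in 10 of 22 alternatives. The 6 delta cell markers summed to 147, 128, 170 and 377 CPM in members and to 314, 406, 297 and 240 CPM in the others. They include Sst, which the rule limits. With vehicle at 3.9 mM 3 members held 248 of 268 of these UMIs. All 12 acinar markers summed to 18.4, 23.9, 23.6 and 35.2 CPM in members and to 67.9, 73.9, 712 and 36.6 CPM in the others, and their part in these differences was not tested. The remaining named genes were Sfxn2 (-1.40 ± 0.28), a mitochondrial carrier gene, the fructose transporter gene Slc2a5 (-0.71 ± 0.14), the phosphatase gene Dusp23 (-0.98 ± 0.23), Pnmal1 (-0.88 ± 0.19), Lrrc10b (-0.82 ± 0.19) and the imprinted long noncoding RNA Kcnq1ot1 (-0.58 ± 0.12).

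Each of these last 6 calls was lost when single libraries were left out. Dusp23 was called in 3 of 22 alternatives and in none of the fits that left out 1 library, where its adjusted p lay between 0.0823 and 0.199 (edgeR). Without imeglimin 11.1 mM the adjusted p was 0.166 for Sfxn2, 0.212 for Slc2a5, 0.371 for Lrrc10b and 0.143 for Kcnq1ot1. Without vehicle 11.1 mM it was 0.0739 for Slc2a5, 0.0897 for Lrrc10b and 0.109 for Pnmal1. Without imeglimin 3.9 mM it was 0.0856 for Pnmal1 and 0.0507 for Kcnq1ot1, and without vehicle 3.9 mM it was 0.0563 for Sfxn2, 0.0815 for Pnmal1 and 0.0750 for Kcnq1ot1 (all edgeR).

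Most hypoxia and glycolysis genes had fold changes above 0. Of 16 hypoxia genes 2 were higher (median 0.66, 15 above 0), and of 18 glycolysis genes 1 was (median 0.41, 14 above 0). Pfkfb3, which makes the activator of phosphofructokinase, stood at 111, 80.6, 11.1 and 50.7 CPM in members and at 22.1, 24.1, 3.27 and 6.95 CPM in the others (log2 2.17 ± 0.21, adjusted p = 3.38e-05, edgeR). Ldha, lactate dehydrogenase A, a gene that beta cells normally keep low, stood at 221, 125, 2.004 and 16.9 CPM in members and at 98.4, 38.6, 1.56 and 3.93 CPM in the others (log2 1.35 ± 0.21, adjusted p = 0.00298, edgeR). In both sets of cells its level was higher in the 11.1 mM libraries, and its adjusted p was 0.104 without imeglimin 11.1 mM (edgeR). Ldha was called in 16 of 23 alternatives. It was not called for the top 1%, the top 5% or the top 3% within each library, without the library block, or in either set that left out cells with marker UMIs of other types. Higd1a, a hypoxia-induced mitochondrial gene, was called at 1.51 ± 0.30, but lay lower in members with imeglimin at 3.9 mM, at 1.56 against 1.79 CPM. Its adjusted p was 0.648 without imeglimin 11.1 mM, 0.135 without vehicle 11.1 mM and 0.0990 without vehicle 3.9 mM (edgeR). Without imeglimin 3.9 mM, 11 of 16 hypoxia and 9 of 18 glycolysis genes were higher. Of 13 NRF2 targets 1 was higher, the autophagy receptor gene Sqstm1, at 772, 648, 812 and 1056 CPM in members and at 453, 336, 551 and 523 CPM in the others (log2 0.82 ± 0.10, adjusted p = 4.99e-04, edgeR).

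**Figure D5:**
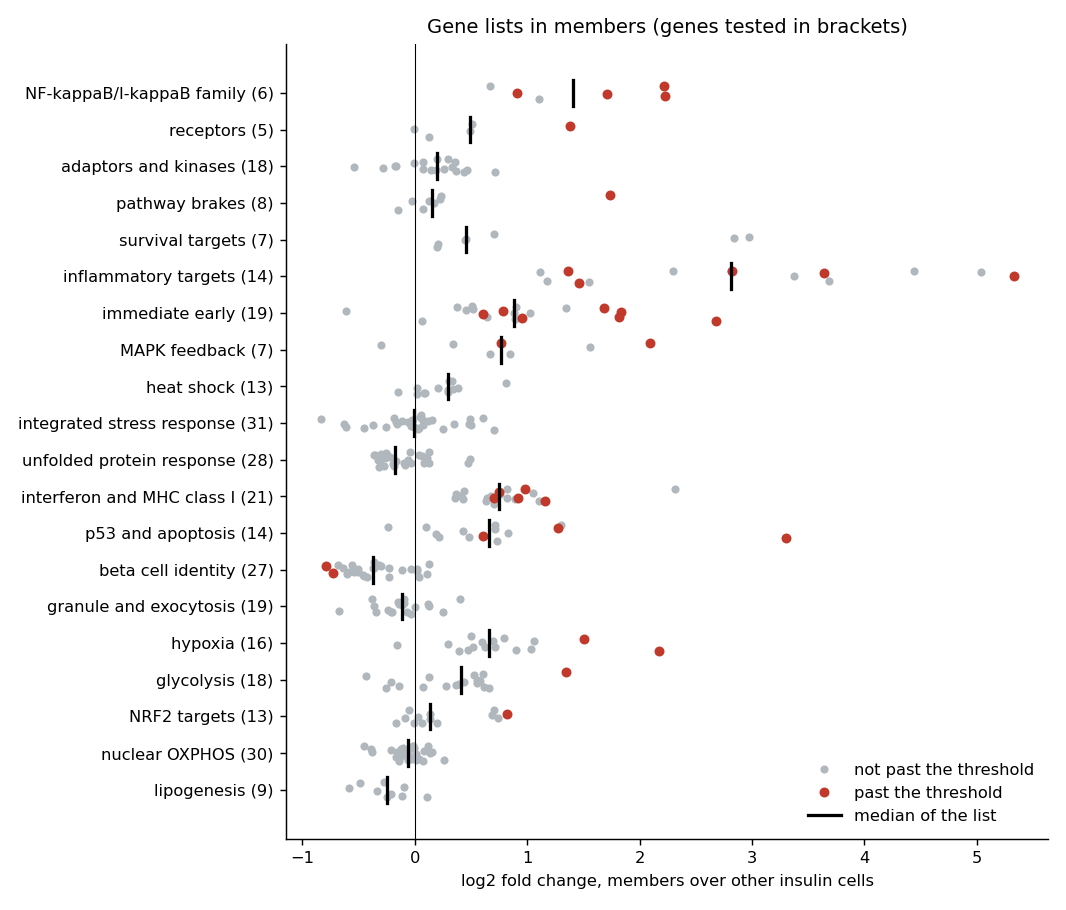
log2 fold change of members over other insulin cells (x axis) for the tested genes of 20 fixed lists, 1 point per gene, red where the edgeR adjusted p was under 0.05, with a black bar at the list's median. The inflammatory targets (median 2.82, or 1.78 over the 31 tested without the minimum) and the NF-kappaB and I-kappaB family (median 1.41) lie farthest to the right, and beta cell identity (median -0.37) farthest to the left. Without the minimum the median of all genes tested was -0.26.

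Transcripts of other cell types were counted in the members themselves. Macrophage markers summed to 187, 469, 29.2 and 49.3 CPM in members and to 51.6, 89.1, 57.1 and 86.5 CPM in the other insulin cells. In the 11.1 mM libraries 3 members held 68 of 71 of these UMIs with imeglimin and 153 of 157 with vehicle. Endothelial markers summed to 142, 299, 49.7 and 15.5 CPM in members and to 44.0, 48.5, 62.6 and 38.6 CPM in the others, again with 52 of 54 and 99 of 100 member UMIs in 3 cells at 11.1 mM. Neutrophil markers stood at 466 CPM in members with imeglimin at 11.1 mM, where 3 cells held 176 of 177 UMIs, at 56.7 with vehicle at 11.1 mM, and at 0.223 and 0 at 3.9 mM. In the other insulin cells they stood at 11.1, 1.01, 0.288 and 0.158 CPM. T and NK cell markers were at 0 in the members of all 4 libraries. Stromal markers summed to 57.9, 74.6, 13.4 and 0 CPM in members and to 7.48, 15.3, 15.4 and 12.7 CPM in the others. At 11.1 mM 2 members held all 22 stromal UMIs with imeglimin, and 2 held all 25 with vehicle. Duct markers summed to 727, 1120, 718 and 1052 CPM in members and to 615, 908, 662 and 787 CPM in the others. They were found in 36 of 39, 34 of 36, 425 of 484 and 49 of 49 members.

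The part of immune and endothelial transcripts in the results was examined by leaving out cells that held them. With every insulin cell that held any UMI of a macrophage, dendritic, neutrophil, T and NK, B or endothelial marker left out, an alternative chosen after seeing the data, the top 3% of the rest held 19 of 3044, 14 of 1934, 240 of 3115 and 19 of 1625 insulin cells. Of the genes tested, 68 were higher and 8 lower in them, and 66 of the 106 earlier calls were called again. The NF-kappaB and I-kappaB family had 4 calls of 6 and the inflammatory targets had 5 of 10. S100a9, a granulocyte alarmin gene called in all cells (log2 4.85 ± 0.77, adjusted p = 0.0185, edgeR), rested on 139, 17, 1 and 0 UMIs in members, of which 1 cell held 120 and another 17.

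Further counts came from other cells of like depth and from molecules that did not choose the members. Against other insulin cells matched on UMIs, 5 per member, 95 genes were higher and 14 lower, and 93 of the 106 calls were shared. Members chosen on one random part of the UMIs and measured in the other gave 96 higher and 13 lower, with 79 calls shared. Of 45 named genes past the threshold, Bcl3, Cebpd, Csf1, Elf3, Irf1, Junb and Nfkbiz were called in all 23 alternatives, and Maff and Tifa in all 22 in which they were tested. Without imeglimin 11.1 mM 23 of the 45 were no longer called, without vehicle 11.1 mM 15 of 43, without imeglimin 3.9 mM 5 of 43, and without vehicle 3.9 mM 19 of 45.

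Whether the difference between members and other cells depended on treatment or glucose was tested in the same 8 sums. For imeglimin against vehicle 1 of 7788 genes (0.0128%) was called: Try4, a trypsinogen gene of acinar cells, at 0, 8.96, 1.78 and 5.63 CPM in members and at 7.44, 10.6, 72.6 and 4.04 CPM in the others (adjusted p = 0.0455, edgeR). The value of 72.6 CPM came from 80 of 4369 other insulin cells, which held all 3525 Try4 UMIs. For 11.1 against 3.9 mM glucose 24 genes (0.308%) were called, 19 with a higher and 5 with a lower log2 fold change of members over others at 11.1 mM. Ifitm3, an interferon-induced membrane gene, stood at 63.2, 89.6, 7.57 and 0 CPM in members and at 4.23, 6.96, 16.3 and 5.96 CPM in the others (adjusted p = 2.06e-05, edgeR). In the 11.1 mM libraries 1 member held 19 of 24 Ifitm3 UMIs with imeglimin and 1 held 29 of 30 with vehicle. The MHC class II genes H2-Aa, H2-Ab1 and H2-Eb1 followed, with 68.7 to 134 CPM in members at 11.1 mM, 0 to 1.41 at 3.9 mM, and 2.03 to 6.63 CPM in the other insulin cells of all libraries. At 11.1 mM a single member held all 28 H2-Aa UMIs with imeglimin and all 45 with vehicle. Likewise 1 cell in each library held all H2-Eb1 UMIs (40 and 23), and 1 held 40 of 41 and 22 of 24 H2-Ab1 UMIs. Macrophage markers were concentrated in 3 members of the same libraries, as given above. Ifitm3 and these MHC class II genes reached the minimum mean CPM only through members at 11.1 mM. The filter thus selected them on the same values that the glucose test compares, which bears on their adjusted p-values. Gadd45b, a survival target of NF-kappaB, came next, with a higher fold change at 11.1 mM (log2 difference of differences 2.13 ± 0.28, adjusted p = 6.32e-04, edgeR). Apart from Ttr, the 4 genes with a lower fold change at 11.1 mM were Manf, Sdf2l1, Creld2 and Ero1lb, which encode proteins of the endoplasmic reticulum and were named after their values were seen. Manf stood at 564, 472, 870.2 and 565 CPM in members and at 1101, 771, 765 and 535 CPM in the others (adjusted p = 0.0216, edgeR). Each of the 4 was below the others in the members of both 11.1 mM libraries.

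Ttr was the one gene among the 5 leading ones that was lower, not higher, in members at 11.1 mM. It encodes transthyretin, abundant in alpha cells, and stood at 121, 92.6, 278 and 117 CPM in members and at 497, 398, 255 and 164 CPM in the others (log2 difference of differences -1.94 ± 0.25, adjusted p = 4.10e-04, edgeR). Its UMIs were spread over 21 of 39, 20 of 36, 327 of 484 and 33 of 49 members. With 2 libraries on each side of a term, these tests have few degrees of freedom, and each glucose level holds 1 imeglimin and 1 vehicle library.

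The same score was read in the other cells of each library. Glucagon cells reached it in 8 of 778, 4 of 552, 12 of 1112 and 7 of 647 cells, that is in 1.03%, 0.725%, 1.08% and 1.08%. With imeglimin at 3.9 mM the 95% exact interval was 9.14 to 10.9% in insulin cells and 0.559 to 1.88% in glucagon cells, whose median depth was 9552 and 7187.5 UMIs. Somatostatin cells reached it in 0 of 170, 0 of 166, 4 of 301 and 0 of 125, where 0 allows a share of up to 2.15%, 2.20% and 2.91% by the exact interval. Cells with macrophage markers reached it in 26.1%, 17.3%, 14.2% and 12.9%, and cells with endothelial markers in 20.6%, 32.9%, 19.7% and 19.5%. The median depth of these non-endocrine cells was 2846 to 6066.5 UMIs, against 9552 to 13010 in insulin cells.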

How the data were processed

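Islet cells of 4 cultures, 1 library each, were profiled by droplet 3′ sequencing. The authors deposited raw UMI counts per gene and barcode, made with Cell Ranger 6.0.2 on build mm10, per the submitters' processing notes. Counts were summed over members and over other insulin cells of each library, giving 8 sums. Genes with a mean of at least 10 CPM were tested with edgeR 4.0.16 (R 4.3.3), by the quasi-likelihood test with TMM scaling and the library as a block, leaving out the 5 rule genes, at an adjusted p under 0.05. The p-values measure the spread between 4 culture conditions, not between replicates. Exact two-sided sign-flip tests used scipy 1.17.1, and doublets were sought with scanpy 1.11.5 under Python 3.11.15, where the caller marked 0 barcodes. On simulated counts the fit recovered 90% of genes changed by 1 and 100% of those changed by 2 on the log2 scale. Each simulated gene had the same base level and the same change in all 4 libraries. Genes whose change varied between libraries were not simulated, so these shares do not hold for them. Cxcl1 and Icam1, with log2 fold changes of 4.44 and 5.04, missed the threshold. DESeq2 1.42.0, other scalings, filters, thresholds and sets of cells were alternatives. The rule named the 12 highest and 12 lowest fold changes among genes past the threshold that had the same direction in all 4 libraries, up to 6 genes of each NF-kappaB list by mean level, up to 4 called genes of each other list, a fixed set of single genes, and up to 5 genes of each interaction. Other genes named, among them Tnfaip8, S100a9, Ier5, Jund and Ifi27, were chosen after their values were seen. The members and lists were chosen with earlier results of these data known. Gene coordinates came from GENCODE vM21. Intervals are exact (Clopper-Pearson or Poisson, 95%) and cover counting error only. Some single-gene results are not reported here.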

Additional observations from a re-analysis of the deposited data

Results flagged for a closer look

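For the 6 leading genes the difference between members and other insulin cells itself differed with the culture condition, by the interaction terms of edgeR's quasi-likelihood test. With imeglimin against vehicle it was Try4 (adjusted p = 0.0455), which had 0 UMIs in 39 members with imeglimin at 11.1 mM and 3, 8 and 4 UMIs in the members of the vehicle 11.1 mM, imeglimin 3.9 mM and vehicle 3.9 mM libraries. In the other insulin cells of the imeglimin 3.9 mM library 80 of 4369 cells held all 3525 Try4 UMIs. With 11.1 against 3.9 mM glucose the genes were Ifitm3 (2.06e-05), H2-Aa (3.61e-05), H2-Ab1 (5.26e-05), H2-Eb1 (5.26e-05) and Ttr (adjusted p = 4.10e-04). All of them but Ttr reached the minimum mean CPM only through members at 11.1 mM, which bears on their adjusted p-values. Ifitm3 had 24 UMIs in 3 members and 30 in 2 members at 11.1 mM, with imeglimin and vehicle, and 34 in 12 members and 0 at 3.9 mM. A single member held 19 of the 24, and another 29 of the 30. Of these genes Ttr was found in the most members, in 21 of 39, 20 of 36, 327 of 484 and 33 of 49.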

How the results depend on the processing

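Members and other cells come from the same 4 libraries, and the library block pairs them: without it 16 genes were higher and 1 lower. Conditions have 1 library each and could not be paired. Counts higher and lower were 154 and 16 with DESeq2, 33 and 5 at a mean CPM of at least 50, 164 and 55 without a filter, 55 and 17 for the top 1%, 181 and 49 for the top 5%, 343 and 187 for the top 3% within each library, and 286 and 121 for members chosen without Nfkbia. They were 105 and 5 without cells holding 3 or more marker UMIs of other types, and 68 and 8 without cells holding any immune or endothelial marker UMI, chosen after seeing the data. With 1 library left out they ranged from 34 to 191 higher and from 6 to 37 lower. For imeglimin 0 genes were called by edgeR at a mean CPM of at least 50 (71 at an unadjusted p under 0.05) and 0 for the top 3% within each library (303), while DESeq2 called 1 in the full table, and 4 to 101 were called with 1 library left out. For glucose these were 6 and 8, and 24 to 136 with 1 library left out. In the order used above, shares of members were 0.0701, 0.115, 3.71 and 0.287% for the top 1%, 1.33, 1.73, 14.9 and 2.81% for the top 5%, 1.93, 1.71, 5.79 and 2.83% without Nfkbia, and 0.980, 1.30, 11.8 and 2.13% after thinning. The share was 1.49% with vehicle at 3.9 mM in cells with at least 5000 UMIs, and 7.70% with imeglimin at 3.9 mM without immune or endothelial marker UMIs. Rbp4 turned to 0.35 in that last setting and Higd1a to -1.62 for the top 1%; the cause was not tested. Of the 4 libraries 3 held 49 members or fewer, which limits genes of low level.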
